A study of Rattus norvegicus with 4 samples.

Results

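The microRNA genes described here are the genes that a pooled list of H3K27me3 peaks from rat sciatic nerve annotates as non-coding RNA and names with a symbol starting with Mir. There were 178 of them among the 10647 genes that the list names. The nerve came from male Sprague Dawley rats at postnatal day 42, from the side that received only a skin incision as a sham operation, and was taken 1 day after the sciatic nerve of the other side had been transected. Chromatin was cut with micrococcal nuclease and immunoprecipitated. Of the 4 libraries, 2 were H3K27me3 libraries and 2 input libraries. The authors deposited 1 combined list of 129550 peaks on the rn5 assembly. Because that list is pooled, the error between replicates is unknown and no difference was tested. A whole nerve holds Schwann cells, fibroblasts, endothelial cells and blood cells beside the axons, whose nuclei lie outside it. In such bulk tissue a mark in fewer cells and less mark per cell cannot be told apart.

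Trimethylation of histone H3 at lysine 27 is placed by the Polycomb complex PRC2 and covers genes that a cell keeps silent, often developmental regulators of other lineages, in domains that can run far past a promoter. A microRNA is cut by Drosha and then Dicer from a hairpin in a longer primary transcript, and its seed, bases 2 to 8, pairs with target messenger RNAs. Many microRNAs are made in 1 lineage, such as neurons, muscle or blood, and their genes are under the same kind of control as protein-coding genes.

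The term promoter peak is used for any peak that lists the gene as its nearest and that covers its transcription start site (TSS) or ends no more than 1000 bp from it. For a microRNA the list's TSS is the start of the hairpin record and not the start of the primary transcript. This shows in hairpins read from opposite strands of the same stretch, whose annotated starts lay 95 to 111 bp apart in the 7 pairs with both positions. A peak also names only the gene with the TSS nearest its centre, so a domain over several genes counts for 1 of them.

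Mature sequences were found in RefSeq (GRCr8) for 167 of the 178 genes. Those below belong to the families that the results turn on, printed 5′ to 3′ with the seed in capitals, so that families sharing a seed can be recognised by eye. miR-9a-5p comes from Mir9-1, Mir9-2 and Mir9-3, and miR-9b-5p from the Mir3597 hairpins on the opposite strand.
rno-miR-9a-5p: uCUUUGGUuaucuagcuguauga
rno-miR-9b-5p: uUCGGUUAucuagcuuuau
rno-miR-137-3p: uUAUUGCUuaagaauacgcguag
rno-miR-129-5p: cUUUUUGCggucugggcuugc
rno-miR-132-3p: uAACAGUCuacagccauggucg
rno-miR-212-3p: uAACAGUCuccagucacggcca
rno-miR-10a-5p: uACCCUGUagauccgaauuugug
rno-miR-196a-5p: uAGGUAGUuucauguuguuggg
rno-miR-196b-5p: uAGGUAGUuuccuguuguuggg
rno-miR-196c-5p: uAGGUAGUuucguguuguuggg
rno-miR-183-5p: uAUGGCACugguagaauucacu
rno-miR-182: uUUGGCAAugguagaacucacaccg
rno-miR-96-5p: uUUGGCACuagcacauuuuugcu
rno-miR-375-3p: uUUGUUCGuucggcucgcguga
rno-miR-34a-5p: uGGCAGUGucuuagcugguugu
rno-miR-34b-5p: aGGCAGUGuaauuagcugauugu
rno-miR-34c-5p: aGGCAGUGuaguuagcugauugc
rno-miR-449a-5p: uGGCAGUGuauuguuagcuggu
rno-miR-449c-5p: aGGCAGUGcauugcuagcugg
rno-miR-1b: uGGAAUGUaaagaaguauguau
rno-miR-1-3p: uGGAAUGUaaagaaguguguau
rno-miR-206-3p: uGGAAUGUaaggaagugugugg

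With the limit of 1000 bp, microRNA genes had promoter peaks about as often as genes in general. A smaller share had one with a score of at least 9.9. Among genes with a promoter peak, however, the median score was higher for microRNA genes, as given below. The peaks ranged from the narrowest of the list to domains at miR-9 loci. Of the 178 microRNA genes, 57 had a promoter peak, which is 32.0% with a 95% Wilson interval of 25.6% to 39.2%. Among all 10647 named genes the share was 38.4%, among protein-coding genes 38.5%, and among the other non-coding RNA genes 41.1%. A promoter peak with a score in the top 25% of all peaks, at least 9.9, stood at 36 microRNA genes, or 20.2% (15.0% to 26.7%), against 28.1% of all named genes. Peaks of at least 5000 bp stood at 15 microRNA genes, or 8.43% (5.17% to 13.4%), against 5.33% of all named genes, and peaks of at least 10000 bp at 7, or 3.93% (1.92% to 7.89%), against 1.77%. At the other end, the widest promoter peak had the list's smallest width of 150 bp at 13 microRNA genes, or 7.3%, against 5.06% of all named genes. These intervals cover counting error only, and neighbouring genes are not independent.

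The median of the widest promoter peak per microRNA gene was 1626 bp (quartiles 215 and 5063 bp, n = 57), against 1341 bp for all genes with one (363.75 and 3209.25 bp, n = 4088). The authors' peak score, which has no stated scale and is compared here only between peaks of this list, had a median of 68.7 (quartiles 4.54 and 237.6) at microRNA genes, against 40.6 (8.66 and 124.4) at all genes. The quartiles of microRNA genes thus lay outside those of all genes at both ends, for width and for score. In score, 20 of the 57 genes reached at least 100, 16 lay between 10 and 100, and 21 lay under 10.

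**Figure D1:**
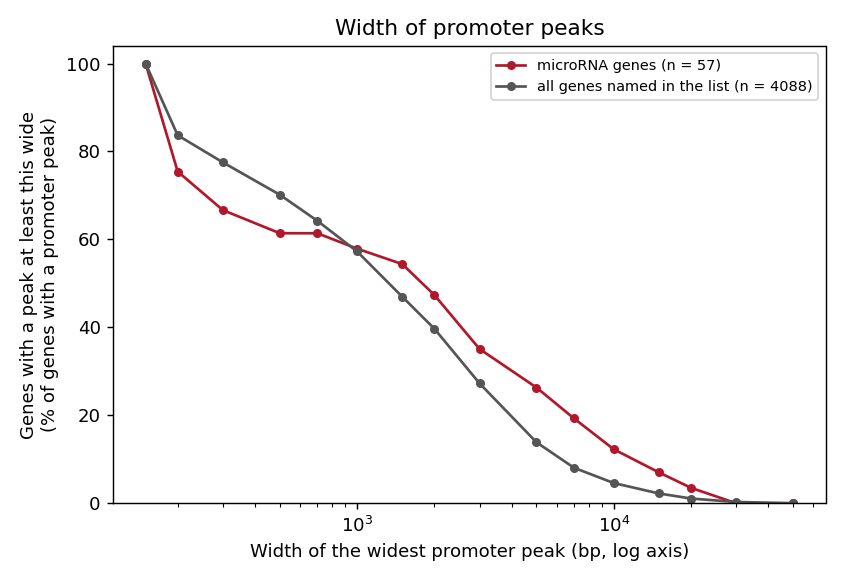
Share of genes with a promoter peak (y axis, percent) whose widest promoter peak is at least as wide as the value on the x axis (bp, log axis), for the 57 microRNA genes (red) and all 4088 genes with a promoter peak (grey). Both curves start at 100%; the microRNA curve is the lower at 200 bp, at 75.4% against 83.7%, and the higher at 5000 bp, at 26.3% against 13.9%.

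The miR-9 genes, whose product acts in neural progenitors and neurons, lay under some of the highest-scoring peaks of the whole list. Mir9-1 lay under a peak of 27594 bp on chromosome 2 (206965287 to 206992881, rn5) with a score of 2115.1, rank 11 among all 129550 peaks. It stretched 20529 bp upstream and 7065 bp downstream of the annotated start. If 1 score step stands for 1 sequenced tag, an assumption, the 95% counting interval of this score is 2074 to 2156.

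Mir9-2 had a peak 12628 bp wide that scored 830.9 (chromosome 2, 11739304 to 11751932). A second peak assigned to Mir9-2 was wider and scored higher, at 21595 bp and 1606.2, but its centre lay 19076 bp upstream and it did not come within reach of the start. Mir9-3 had no promoter peak under its own name. Its start lay inside the peak that names Mir3597-3, the hairpin read from the opposite strand, and this peak was 21555 bp wide with a score of 1432.1 (chromosome 1, 142186149 to 142207704). Peaks carry no strand, so the 2 hairpins of a pair cannot be told apart. All 3 miR-9 hairpins lay under peaks of more than 10000 bp. The pairing with an antisense hairpin held at each locus: the hairpins of Mir9-1 and Mir3597-1 share a run of 89 nt, those of Mir9-2 and Mir3597-2 one of 87 nt, and those of Mir9-3 and Mir3597-3 one of 90 nt. With peaks no more than 5000 bp apart joined, the domains were 60480 bp at Mir9-1, 51934 bp at Mir9-2 and 174503 bp at Mir9-3.

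The miR-124 genes, which give the most abundant microRNA of mature neurons, all had promoter peaks. Mir124-2 had a peak 14529 bp wide that scored 946.8 (chromosome 2, 122036980 to 122051509), Mir124-1 one 7691 bp wide that scored 456.1 (chromosome 15, 51709395 to 51717086), and Mir124-3 one 5063 bp wide that scored 254.3 (chromosome 3, 180110255 to 180115318). Their counting intervals, 919.6 to 975, 437 to 475, and 240.3 to 269, did not overlap. These leave out the error between replicates and depend on where a domain was split into peaks. Another peak of Mir124-1, 6362 bp wide with a score of 417.9, lay 351 bp from its promoter peak. With peaks no more than 5000 bp apart joined, the domains were 25989 bp at Mir124-2, 23234 bp at Mir124-1 and 12020 bp at Mir124-3. The higher peak of Mir124-3 ended 808 bp before the start, and the start itself lay in its second peak, of 3300 bp and a score of 121.3.

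Of the 22 genes of a list of neuronal microRNAs that the peaks name, 12 had a promoter peak, 7 of them of at least 5000 bp. The Wilson interval of this share of 54.5% was 34.7% to 73.1%. It holds the 38.4% of all named genes and lies above the 32.0% of all microRNA genes, which include these 22. The list was chosen with earlier results of these data known, and members such as Mir132 and Mir212 share a locus. The interval therefore does not test whether the list differs. The 12 genes had a median of 5067 bp in width and 253.3 in score. Mir129-2, one of the loci for a brain-enriched microRNA, had a peak 16916 bp wide that scored 759.5, whereas Mir129-1 had none and its nearest centre lay 2188 bp away. Mir137, a regulator of synaptic genes, had peaks of 4911 and 2365 bp with scores of 252.3 and 90.1, the first over the start and the second just downstream of it. Mir135b had a peak 5071 bp wide that scored 225.5, and its relative Mir135a had none, with the nearest centre 31763 bp away. Family members at separate loci therefore differed within the miR-129 and miR-135 families.

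Smaller peaks lay at Mir7a-2 (3971 bp, score 138.8), which gives a microRNA of neuroendocrine cells, and at Mir128-2 (960 bp, score 25.8), which lies inside Arpp21. Mir212 and Mir132, neighbours that CREB switches on in active neurons, had peaks of 2291 bp and 787 bp with scores of 69.9 and 23.1. Their mature products share the seed AACAGUC. Neuronal genes without a promoter peak included Mir218-1 and Mir218-2, made in motor neurons from introns of Slit2 and Slit3, whose nearest centres lay 92473 and 195591 bp away. Slit2 and Slit3 themselves had promoter peaks with scores of 185.6 and 36.3. Mir138-1, Mir488 and Mir873 also had none, with nearest centres 8837, 45415 and 286964 bp away.

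MicroRNA genes inside the Hox clusters are transcribed with the Hox genes that set position along the body axis. They had promoter peaks in 5 of 6 cases (83.3%, Wilson interval 43.7% to 97.0%), against 38.4% of all named genes. Mir10a had a peak 12557 bp wide that scored 556.5 (chromosome 10, 83957834 to 83970391). The annotated start of Hoxb4 also lay under it, and a 47839-bp peak of Hoxb8 that scored 3183.4 lay 343 bp away. Mir196a, between Hoxc10 and Hoxc9, had a peak 7924 bp wide that scored 453.2. Mir615 in Hoxc5 had 2192 bp and a score of 86.8, and Mir10b in Hoxd4 had 2613 bp and a score of 97.6, against 186.9 for the best promoter peak of Hoxd4.

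Mir196b has 2 annotated copies in rn5, with 4 promoter peaks in all, of 924 to 3301 bp and scores of 30.1 to 105.0. Mir196c was the exception in the Hox list. It had no promoter peak of its own, but its start lay in the Hoxb8 peak. Its mature sequence has the seed AGGUAGU of miR-196a and miR-196b, so when a peak of any gene is counted all 3 genes of that seed had one at the start or within 1000 bp. The joined domains that hold these genes were 282221 bp in the Hoxb cluster, 257771 bp in Hoxc, 164232 bp in Hoxa and 145544 bp in Hoxd.

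Among 15 named microRNAs of epithelia and sensory cells, 9 had a promoter peak (60.0%, Wilson interval 35.7% to 80.2%). The interval holds the 38.4% of all named genes and lies above the 32.0% of all microRNA genes, which include these 15. As for the neuronal list, it does not test whether the list differs. The median of the 9 was only 337 bp in width and 8.87 in score. Mir183, made in hair cells, photoreceptors and other sensory cells, stood out with 15481 bp and a score of 1120.1 (chromosome 4, 57224313 to 57239794). Under their own names the other genes of its cluster showed little. Mir182 had a peak 299 bp wide that scored 5.98, and Mir96 had none, the nearest centre being 1316 bp away. Only 1 peak names Mir96, and it lay 282 bp from the wide peak of Mir183. The start and strand of Mir96 were therefore not worked out. That peak was centred 1316 bp downstream of the start. If Mir96 is read from the same strand as Mir183 and Mir182, this distance places its start under the wide peak. The wide peak ran from 14314 bp upstream to 1166 bp downstream of the Mir183 start.

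Mir375, a microRNA of pancreatic islets and other endocrine cells, had a peak 9060 bp wide that scored 503.3. It lay 256 bp from a 32519-bp peak of Fev, a transcription factor of serotonin neurons and islet cells, with a score of 1530.9. In the miR-34 and miR-449 family, which acts in multiciliated cells and whose 5 named genes share the seed GGCAGUG, 3 had promoter peaks. Mir34c had 4243 bp and a score of 157.0, and this peak also held the start of Mir34b. Mir449a had 337 bp and a score of 8.87 and Mir449c 150 bp and a score of 4.33. Another peak assigned to Mir449c, 2059 bp wide with a score of 110.1, was centred 2048 bp upstream and ended just outside the limit. With peaks no more than 5000 bp apart joined, both genes lay in a domain of 49019 bp that also names Ccno. Mir34a, alone at its locus, had no promoter peak, with the nearest centre 18313 bp away.

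Of the other epithelial genes, Mir203, made in differentiating keratinocytes, had a peak 1230 bp wide that scored 41.0, and Mir3545 on its opposite strand, which is in no list, had one 1204 bp wide that scored 40.8. Mir31 had 150 bp and a score of 2.89. Mir205 had none, with the nearest centre 20716 bp away, and neither had Mir200b, at 1756 bp.

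Of 6 named muscle microRNAs, 2 had promoter peaks, or 33.3%, against 38.4% of all named genes. Mir1b had 6167 bp and a score of 237.6, while Mir1 and Mir206, which share its seed GGAAUGU, had none, with nearest centres 72323 and 8901 bp away. Mir499, which lies in a cardiac and slow-muscle myosin gene, had 294 bp and a score of 5.57. Mir133b and Mir208b had none, at 16710 and 5014 bp.

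Of 9 named blood and immune microRNAs, 2 had promoter peaks (22.2%, Wilson interval 6.3% to 54.7%), against 38.4% of all named genes. Mir142, made throughout the blood lineages, had a peak 7796 bp wide that scored 332.5 and began 981 bp downstream of its start, 19 bp inside the limit. Mir147 had 2475 bp and a score of 81.9. Mir155, Mir223 and Mir146a, which act in lymphocytes, granulocytes and inflammatory signalling, had none, with nearest centres 21519, 53691 and 14957 bp away. Of 4 named microRNAs of liver, pancreas and gut, 2 had promoter peaks (50.0%, Wilson interval 15.0% to 85.0%). These were Mir375, given above, and the liver microRNA Mir122, with 237 bp and a score of 5.78. Mir802 and Mir216b had none, with nearest centres 6173 and 12406 bp away. Of 11 endothelial and smooth muscle microRNAs the peaks named 1, Mir10a, which is given above.

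Of 10 named microRNAs tied in the literature to Schwann cells or to nerve injury, 2 had a promoter peak, neither of at least 5000 bp. The Wilson interval of this share, 5.67% to 51.0%, holds both the 32.0% of all microRNA genes and the 38.4% of all named genes. These were Mir132 and Mir182, given above. Mir30a, Mir30d and Mir204 had none, with nearest centres 21087, 37836 and 111190 bp away. Another 15 genes of this list, among them Mir21, Mir221, Mir222, Mir338 and the Mir29 genes, were named by no peak at all, and so are not among the 178. With them counted, 2 of 25 genes of the list had a promoter peak. The neuronal list had 5 such genes, which makes 12 of 27.

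Of 11 named microRNAs of growth and cell cycle control, 4 had promoter peaks, or 36.4%, against 38.4% of all named genes. Their medians were 344 bp in width and 9.28 in score. Besides Mir34c, Mir449a and Mir449c, this was Mir125b1, with 351 bp and a score of 9.69. Mir17 and Mir92a1, from the polycistron that drives proliferation, had none, although a peak 11593 bp wide that scored 593.2 was centred 8631 bp upstream of Mir17 and missed the limit by 1834.5 bp. Mirlet7g and Mir99b had none, with nearest centres 8309 and 6369 bp away. A further 23 genes of this list were named by no peak.

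**Figure D2:**
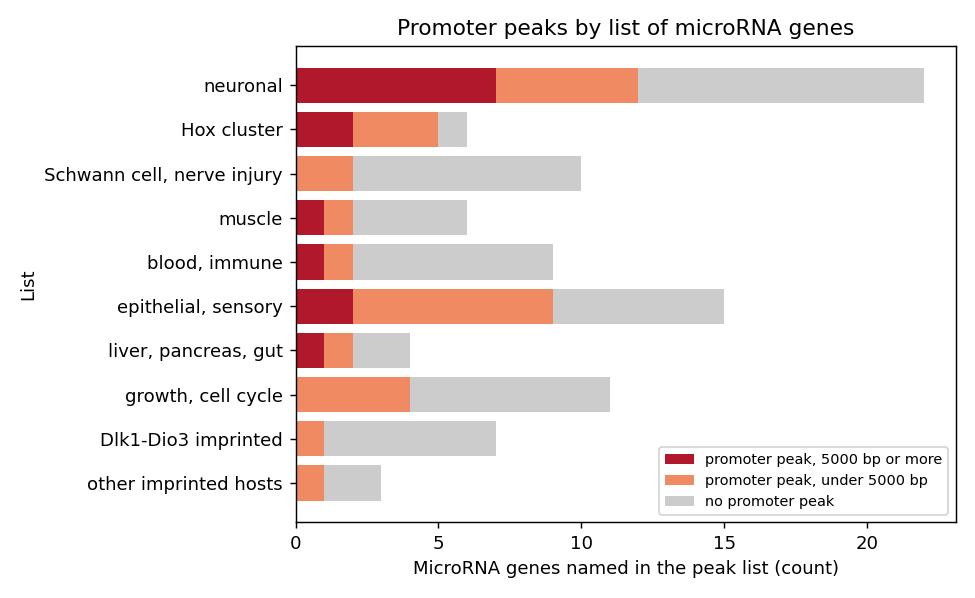
MicroRNA genes named by a peak in each list (number of genes), stacked as promoter peak of 5000 bp or more (red), promoter peak under 5000 bp (orange) and no promoter peak (grey). A gene can be in several lists, and the endothelial list is not drawn. The neuronal list has 12 of 22, the Hox list 5 of 6 and the Schwann cell and nerve injury list 2 of 10. Of all named genes, 38.4% had a promoter peak.

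Across the lists together, 34 of 81 listed genes had a promoter peak, against 23 of the 97 that are in no list. The share was 32.0% for all microRNA genes and 38.4% for all named genes. The lists were chosen with earlier results of these data known. The genes in no list included Mir935, with 6236 bp and a score of 339.9 inside Cacng8, whose own promoter peak scored 4.95, and Mir3550, with 4339 bp and a score of 160.9 inside MAST1, against 353.5 for MAST1. Mir290 and Mir293, of a cluster made in embryonic stem cells, had scores of 83.7 and 3.71, and Mir295-2 had 4.13. Mir301b and Mir130b, neighbours with the seed AGUGCAA, had 73.0 and 3.92, and Mir130a, with the same seed at another locus, had none. Mir148a and Mir152, with the seed CAGUGCA, both had peaks of 150 bp with scores of 3.09.

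**Figure D3:**
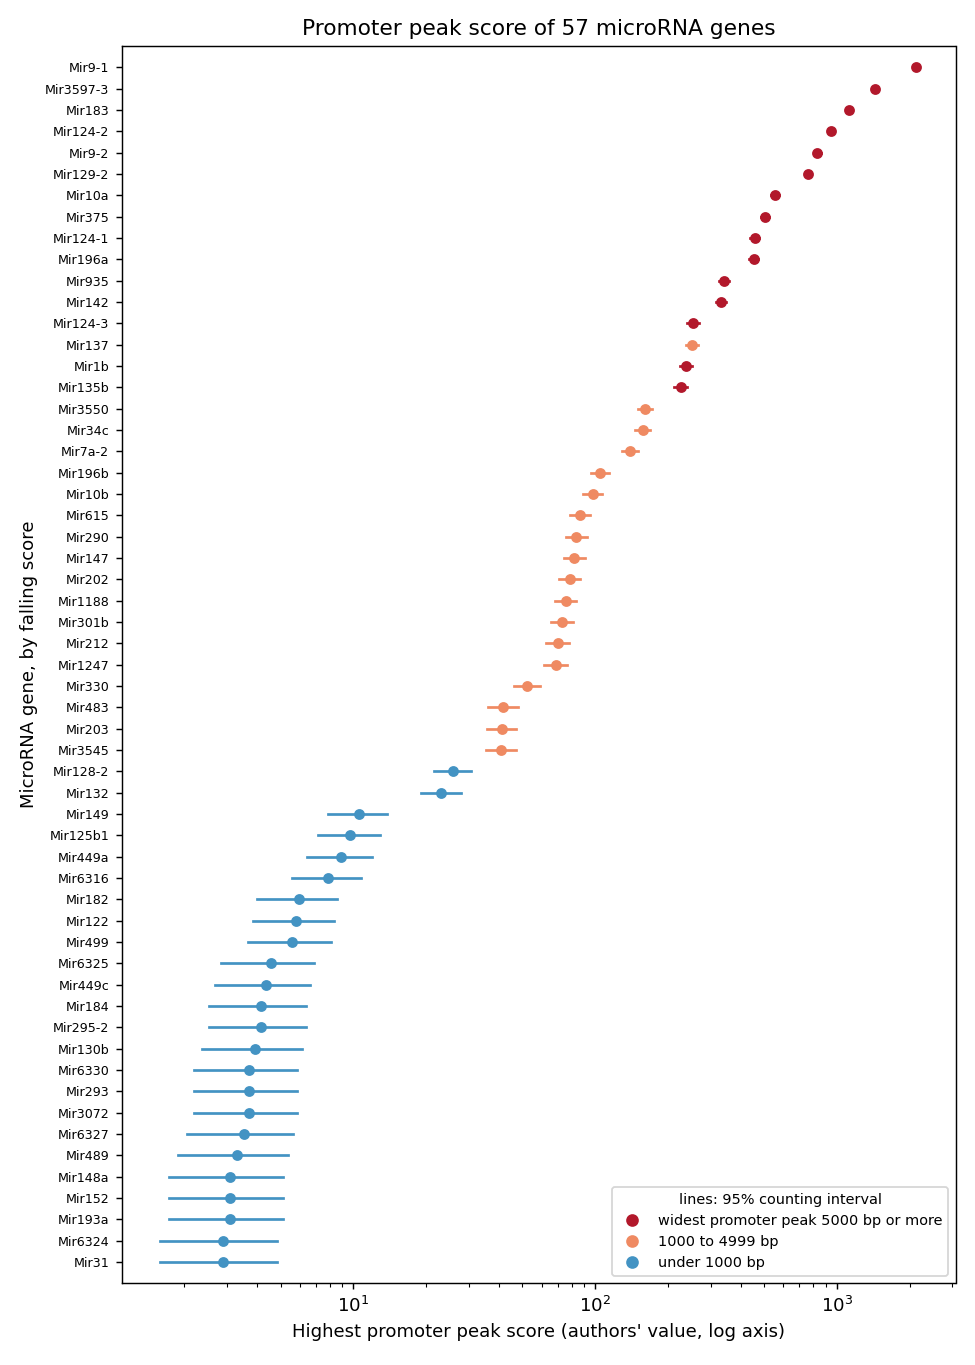
Score of the best promoter peak (x axis, log axis) of all 57 microRNA genes that had one (y axis, by falling score), coloured by the width of the widest promoter peak, with 95% counting intervals that treat 1 score step as 1 tag. Mir9-1 at 2115.1, Mir3597-3 at 1432.1 and Mir183 at 1120.1 lie above all others, and the intervals of the first 3 do not overlap.

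At imprinted loci 1 parental copy of a gene is silent. Between Dlk1 and Dio3 on chromosome 6, which holds one of the largest microRNA clusters, 3 of the 8 named genes that lie in rn5 between the outer starts had a promoter peak, a share near the 38.4% of all named genes. Mir1188 had 2360 bp and a score of 75.5, Mir1247, 1201 bp from Dio3, had 1599 bp and a score of 68.7, against 102.7 for the promoter peak of Dio3, and Mir3072 had 150 bp and a score of 3.71. Mir136 and Mir337 had none, with nearest centres 1910 and 2662 bp away. Of the 7 named genes of a list made for the cluster, 1 had a promoter peak, Mir3072; the 7 include Mir544, which the peak list places on chromosome 19, and another 41 genes of that list were named by no peak. Mir483, inside Igf2, had 1795 bp and a score of 41.7, against 508.5 for Igf2, whereas Mir675, in H19, and Mir296 had none, with nearest centres 5074 and 6664 bp away.

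MicroRNAs inside protein-coding genes on the same strand, or on a strand that could not be worked out, had promoter peaks in 22 of 77 cases (28.6%, Wilson interval 19.7% to 39.5%), and the others in 35 of 101 (34.7%, 26.1% to 44.3%). The intervals overlap. Among those with a peak, the median was 1594 bp and 46.95 in score for microRNAs inside protein-coding genes. It was 2093 bp and 69.9 for the others, with 4 and 11 peaks of at least 5000 bp. The others are not all between genes: Mir9-1, Mir124-1 and Mir137, for example, lie inside long non-coding RNA genes. Mir9-2 counts as inside only because its host transcript is annotated as protein-coding. For 46 of the 77 the host gene was itself named by a peak. The microRNA and its host both had a promoter peak in 11 cases, only the host in 18, only the microRNA in 1 (Mir152 in Copz2), and neither in 16. Hosts with a high score over a microRNA without one included Zranb2 at 678.8 and Sfmbt2 at 576.5, beside Slit2 above.

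The promoter peaks were centred on both sides of the annotated start. A promoter peak contained the annotated start in 29 of the 57 genes, which is 16.3% of all 178, against 13.8% of all named genes. Of the 57 best peaks, 30 were centred upstream and 27 downstream of the start. Of those of at least 5000 bp, 11 were centred upstream and 4 downstream. The authors' annotation put 19 of the 57 centres at a promoter, 17 between genes, 15 at a transcript end, 5 in introns and 1 in a 3′ UTR. The transcript ends were those of hairpin records, so these 15 centres, like the 19 at a promoter, lay near a hairpin. The 121 genes without a promoter peak had their nearest centre at a median of 14957 bp, with 50 within 10 kb and 25 beyond 50 kb. Of the 121, at least 10 had a start inside or within 1000 bp of a peak assigned to another gene, among them Mir9-3, Mir196c and Mir34b. Only genes whose start was worked out, 149 of the 178, could be checked for this.

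The count depended on the limit of 1000 bp, with 29 genes where the peak had to contain the start and 89 with a limit of 5000 bp, where 61.9% of all named genes had a peak. Mir142 at 19 bp, Mir31 at 126 bp and Mir3550 at 170.5 bp were inside it, and Mir153 at 53 bp, Mir346 at 61 bp and Mir106a at 116 bp outside. Mir153, a neuronal microRNA in Ptprn2, had its nearest peak at 1128 bp with a score of 3.51, and Ptprn2 had a promoter peak with a score of 59.4. Joining genes within 10 kb of each other into loci gave 154 loci, of which 50 had a promoter peak. Of the 21 loci with several genes 15 had one, and the other 35 were loci with a single gene. A locus with several genes has several starts at which a peak can count.

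On the X chromosome none of the 7 named microRNA genes had a promoter peak, which allows a share of up to 35.4% (upper Wilson bound), against 57 of 171 on other chromosomes. Of all genes named on the X chromosome 83 of 250 had one, or 33.2%. The hairpins differed little in base composition: the median GC content was 50.9% with a promoter peak (n = 51) and 49.5% without (n = 107), and 47.5% for those with a peak of at least 5000 bp (n = 12).

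Of 25 genes of the machinery that makes and uses microRNAs, 14 were named by a peak. Of these 14, 4 had a promoter peak, against 38.4% of all named genes. Trim71, a target of let-7 that is made in stem cells, had 9503 bp and a score of 486.8, and Lin28a, which blocks let-7 processing, had 2721 bp and a score of 85.8. Tut4, which adds uridines to let-7 precursors, had 531 bp and a score of 12.4, and Ago4, an Argonaute, 360 bp and a score of 8.46. Drosha and Ago1 had none, and Dicer1, Dgcr8 and Ago2 were named by no peak.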

How the data were processed

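H3K27me3 was measured by chromatin immunoprecipitation after micrococcal nuclease digestion in 2 H3K27me3 libraries with 2 input libraries, per the labels. CASAVA 1.8.2, Bowtie and HOMER are named in the submitters' processing notes. The list combines the sham H3K27me3 peaks and was annotated with HOMER against rn5, per the file headers. Not given in the sources used here are the Bowtie version, how peaks were called, whether input was subtracted and how replicates were merged. Each peak's score, a number with no stated scale, and the widths and distances in bp were deposited by the authors. Library depths are unknown.

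From these, promoter peaks were counted with Python 3.11.15, pandas 2.3.3, numpy 2.4.6 and scipy 1.17.1, and the counting was tested on simulated peaks. A promoter peak's distance to the TSS was no more than 1000 bp plus the width divided by 2. The start and strand of a gene were worked out from the centres and signed distances of at least 2 of its peaks, which gave 149 of the 178. Shares have 95% Wilson intervals. All 97601 scores under 10 were whole multiples of 0.206267 within 0.0055, and counting intervals treat 1 step as 1 tag. Host genes, neighbours and symbols came from RefSeq (GRCr8), used for names and positions relative to each other only. Genes named in the text were those with the 15 highest scores and the 10 greatest widths, the first of each list with and without a peak, families sharing a seed, a set of well-known genes such as Mir21 and the Mir124 and Mir29 genes, and the 3 genes nearest the limit on each side. Others were chosen after their values were seen: Mir7a-2, Mir17, Mir92a1, Mir96, Mir128-2, Mir129-1, Mir135a, Mir135b, Mir138-1, Mir203, Mir204, Mir208b, Mir218-1, Mir218-2, Mir295-2, Mir488, Mir615, Mir873, Mir1188, Mir1247, Mir3545, Mir3597-1 and Mir3597-2. The members and the lists were chosen with earlier results of these data known. Mir155hg is a host transcript and not a hairpin, and is counted among the 178.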

Additional observations from a re-analysis of the deposited data

How the results depend on the processing

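No paired analysis was possible because the deposited list is pooled and holds no value per library; for the same reason no replicate could be left out. The count of 57 microRNA genes with a promoter peak was 29 where the peak had to contain the start, 89 with a reach of 5000 bp, 19 where the authors' promoter class was used, and 36 with only scores in the top 25% (at least 9.9). Under the same rules the shares of all named genes were 13.8%, 61.9%, 18.4% and 28.1%. The share of microRNA genes was above that of all named genes where the start had to be contained, at 16.3%. It was below under the other rules, for example at 20.2% with top scores. The median width of 1626 bp was 4243 bp with the start contained, 337 bp in the promoter class, 4107 bp for top scores and 20116 bp with peaks joined across gaps of up to 5000 bp. The median score of 68.7 was 157.0, 8.87, 147.9 and 134.5 under the same settings. The count was 71 with joined peaks, 67 when a peak of any gene counted, and 57 without Mir155hg. For the 67, peaks of other genes could be counted only at the 149 genes whose start was worked out. Mir142, Mir3550, Mir132 and Mir212 lost their promoter peak where the start had to lie inside, and Mir34b, Mir153 and Mir200b gained one at 5000 bp. The low-scoring promoter peaks of Mir182, Mir449a, Mir449c, Mir31, Mir122 and Mir499 lay outside the top 25%. The depth of the libraries is unknown, and the widest counting intervals relative to the score are those of the lowest scores.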
